A study of Mus musculus with 6 samples.

Results

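The genes described here are the 3 fibroblast growth factor (FGF) receptors Fgfr1, Fgfr2 and Fgfr3 and the 3 FGF ligands Fgf1, Fgf2 and Fgf9. They were chosen by name, with earlier results of these data known. All 6 were found among the 31245 genes of the deposited table, and all 6 were among the 16653 genes kept for testing. Messenger RNA had been sequenced from mouse primary cortical cultures, made from pups at postnatal day 1 and kept for 12 to 13 days in vitro. The NGPF2 group (3 libraries) received 1.5 ng/ml of NGPF2 for 2 h, and the vehicle group (3 libraries) received PBS for 2 h. The labels name no strain, genotype or sex, and no transgene or other agent. The study's design text describes pairs of NGPF2 and vehicle from independent experiments, and libraries of the same replicate number are treated here as a pair. In the library names, replicates 2 and 3 share a stem that replicate 1 lacks, with no reason stated, so these are called library sets. The 6 genes are each given by pair, while some other genes and lists are given for replicates 2 and 3 only.

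FGF receptors are tyrosine kinases of the cell surface. A secreted FGF binds the receptor together with heparan sulfate, the paired receptors phosphorylate each other, and the docking protein FRS2 passes the signal to the Ras-MAPK cascade, while phospholipase C gamma binds the receptor itself. The signal raises the transcription of its own inhibitors, among them the Sprouty genes and Dusp6, and of the ETS factors Etv4 and Etv5. In the cortex FGF signalling acts on neural progenitors and on astrocytes, where Fgfr3 is a well-known marker. Fgf2 is made largely by astrocytes, and Fgf9 was first described as a glia-activating factor and is made by neurons.

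Values are normalized counts, that is, a gene's count divided by the library's size factor. Log2 differences are NGPF2 minus vehicle on the log2(normalized count + 1) scale, which understates the change of genes with low counts. Tests are limma fits over the 16653 genes whose mean normalized count was at least 10, with Benjamini-Hochberg adjustment over all of them and a threshold of 0.05. The total count was 45193691, 27105565 and 17478070 in NGPF2 replicates 1, 2 and 3, and 44788235, 32914352 and 24311967 in vehicle replicates 1, 2 and 3. Over all genes, 2.43% differed by more than 2-fold in pair 1, 15.4% in pair 2 and 15.9% in pair 3.

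The labels call these neuronal cultures, and all 12 neuron markers were expressed, with normalized counts summing to 273058, 446042 and 427907 in NGPF2 replicates 1, 2 and 3 and to 281684, 342152 and 344293 in vehicle replicates 1, 2 and 3. Markers of other cell types were also present. The 11 astrocyte markers summed to 34775, 24066 and 20634 with NGPF2 and to 30924, 75272 and 68003 with vehicle. The 9 microglia markers summed to 1514, 49.0 and 86.1 with NGPF2 and to 1388, 547 and 463 with vehicle, and 3 of them stood at 0 in NGPF2 replicate 2 and 2 in NGPF2 replicate 3. In bulk RNA, fewer cells of a type and less RNA per cell cannot be told apart.

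Over the 3 pairs none of the 6 genes passed the test. The lowest adjusted p among them was 0.379 (limma with the replicate number as a block), and 0.0% of all genes passed, in either direction. In replicates 2 and 3, tested without replicate 1, all 3 receptors and the ligands Fgf1 and Fgf2 were lower in NGPF2 cultures than in vehicle cultures and Fgf9 was higher, and all 6 passed. The background in that fit was high, since 21.1% of all genes passed, 11.3% as lower (1884 genes) and 9.77% as higher (1627 genes). Scaled by library totals instead, 2665 passed as lower and 982 as higher, and the median of all genes moved to -0.13. The median log2 difference was -1.22 over the 6 genes and -0.00 over all genes tested. The fit rests on 2 libraries a group, and it called 0 genes without vehicle replicate 2 or without vehicle replicate 3. Nothing beyond the design text says that replicates 2 and 3 were separate cultures, so its p-values measure the spread between these libraries, which may be technical.

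Fgfr1 (ENSMUSG00000031565, chr8:25513654-25575718, plus strand, mm10) encodes the FGF receptor found on both neurons and glia. It had 1503, 1026 and 957 normalized counts in NGPF2 replicates 1, 2 and 3, against 1308, 2086 and 1797 in vehicle replicates 1, 2 and 3. Both NGPF2 libraries of replicates 2 and 3 lay below every vehicle library, whereas NGPF2 replicate 1 lay above its vehicle partner. The log2 difference was 0.20, -1.02 and -0.91 in pairs 1, 2 and 3. In replicates 2 and 3 Fgfr1 fell 1.95-fold (log2 difference -0.97, SE 0.10, limma adjusted p = 0.00611). In pair 1 the ratio of NGPF2 to vehicle was 1.15, with a 95% counting interval of 1.08 to 1.22 that covers counting error only. Over the 3 pairs the mean was 1162 ± 297 in NGPF2 cultures and 1731 ± 393 in vehicle cultures (SD, n = 3 each), and the difference did not pass (log2 -0.58, SE 0.26, limma adjusted p = 0.390).

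Fgfr2 (ENSMUSG00000030849, minus strand) encodes a receptor used in glia and in the oligodendrocyte lineage. GENCODE M21 gives it a span of chr7:130162451-133123350 and shared exon bases with Ctbp2, a transcriptional co-repressor on the same strand, so their reads cannot be fully told apart. Fgfr2 had 474, 282 and 391 normalized counts in NGPF2 replicates 1, 2 and 3, and 488, 788 and 873 in vehicle replicates 1, 2 and 3. Each NGPF2 library lay below its vehicle partner, by little in pair 1. The log2 difference was -0.04, -1.48 and -1.16 in pairs 1, 2 and 3. Fgfr2 fell 2.49-fold in replicates 2 and 3 (log2 difference -1.32, SE 0.18, limma adjusted p = 0.0107). The pair 1 ratio of 0.972 had a counting interval of 0.877 to 1.08, which includes no difference. Summed with Ctbp2, the normalized counts were 1135, 724 and 716 with NGPF2 and 1149.8, 1345 and 1539.8 with vehicle.

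The upstream sequences of the 2 receptor genes that fell more than 2-fold in replicates 2 and 3 are shown because both moved in the same direction, together with that of Fgf9, which moved the other way. They come from RefSeq on GRCm38.p6, the build also named mm10, and are the bases before an annotated start that lie in no exon of a protein-coding gene in GENCODE M21. Of the 6 genes 4 had an entry (not Fgfr1 and Fgf1), and the bases before the start of Fgf2 lie in an exon and are not shown. Capitals mark matches, on either strand, to the GC box GGGCGG, the CRE half-site TGACG, the SOX core ACAAT or the ETS core GGAAGT. The first and the second Fgfr3 sequence lie before different annotated starts. The first leaves out the 50 bases next to its start, which lie in an exon. The second Fgfr3 sequence and those of Fgfr2 and Fgf9 lie within the GENCODE M21 spans of their genes.
Fgfr3, chr5:33721474-33721673, plus strand: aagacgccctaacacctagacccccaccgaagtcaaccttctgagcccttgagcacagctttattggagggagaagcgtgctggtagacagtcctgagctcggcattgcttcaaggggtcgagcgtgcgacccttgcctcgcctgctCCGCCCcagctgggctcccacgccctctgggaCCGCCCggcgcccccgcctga
Fgfr3, second start, chr5:33722056-33722305, plus strand: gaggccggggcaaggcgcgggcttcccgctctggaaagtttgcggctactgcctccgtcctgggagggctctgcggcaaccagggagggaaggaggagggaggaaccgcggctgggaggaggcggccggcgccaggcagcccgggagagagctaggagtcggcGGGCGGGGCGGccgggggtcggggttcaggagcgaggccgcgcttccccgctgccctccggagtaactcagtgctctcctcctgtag
Fgfr2, chr7:130266809-130267058, minus strand: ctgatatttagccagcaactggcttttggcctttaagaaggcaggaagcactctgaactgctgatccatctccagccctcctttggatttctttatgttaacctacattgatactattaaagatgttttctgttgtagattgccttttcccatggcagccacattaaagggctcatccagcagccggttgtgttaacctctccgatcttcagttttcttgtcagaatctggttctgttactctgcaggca
Fgf9, chr14:58072436-58072685, plus strand: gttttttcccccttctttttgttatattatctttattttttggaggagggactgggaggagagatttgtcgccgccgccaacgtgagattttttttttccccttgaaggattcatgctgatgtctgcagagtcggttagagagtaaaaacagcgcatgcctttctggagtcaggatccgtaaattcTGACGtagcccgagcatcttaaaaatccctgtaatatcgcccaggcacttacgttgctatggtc
The Fgfr3 sequences were 65.0% and 72.8% G and C, and each held 2 GC boxes, which overlap each other in the second. A GC box was present in 24.6% of all 32851 RefSeq promoters over a window of 200 bases and in 32.7% over 250 bases. The Fgfr2 sequence was 44.0% G and C and held none of the 4 motifs in this window. The Fgf9 sequence was 44.8% G and C and held 1 CRE half-site, as did 17.8% of all promoters over 250 bases. No motif of these 4 was found in the windows of both Fgfr3 and Fgfr2. A match is a description of letters and not of a bound site.

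Fgfr3 (ENSMUSG00000054252, chr5:33721674-33737068, plus strand), the receptor known as an astrocyte marker, differed the most of the 6 in replicates 2 and 3. It had 430.5, 117 and 93.3 normalized counts in NGPF2 replicates 1, 2 and 3, against 554, 1212 and 893 in vehicle replicates 1, 2 and 3. NGPF2 replicates 2 and 3 stood far below the other 4 libraries, and NGPF2 replicate 1 lay below its vehicle partner by less. The log2 difference was -0.36, -3.36 and -3.25 in pairs 1, 2 and 3. In replicates 2 and 3 Fgfr3 fell 9.87-fold (log2 difference -3.30, SE 0.21, limma adjusted p = 0.00198). In pair 1 the ratio was 0.777, with a counting interval of 0.702 to 0.861. Over the 3 pairs it averaged 214 ± 188 in NGPF2 cultures and 886 ± 329 in vehicle cultures (SD, n = 3 each), and the log2 difference of -2.32 (SE 0.61) did not pass (limma adjusted p = 0.379). The transcript G630022F23Rik, of unknown function and on the opposite strand, shares exon bases with Fgfr3 and had 8.37 to 25.6 normalized counts in NGPF2 libraries and 16.7 to 21.3 in vehicle libraries, low beside Fgfr3 in every library.

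Fgf1 (ENSMUSG00000036585, chr18:38838673-38929472, minus strand) encodes acidic FGF, a ligand that binds all FGF receptors and lacks a classical signal peptide. It had 711, 339.5 and 346 normalized counts in NGPF2 replicates 1, 2 and 3, against 809, 1121 and 1202 in vehicle replicates 1, 2 and 3. Each NGPF2 library lay below its vehicle partner, by least in pair 1. The log2 difference was -0.19, -1.72 and -1.79 in pairs 1, 2 and 3. Fgf1 fell 3.38-fold in replicates 2 and 3 (log2 difference -1.76, SE 0.10, limma adjusted p = 0.00157). The pair 1 ratio was 0.879, with a counting interval of 0.810 to 0.954. The 3-pair means were 466 ± 212 for NGPF2 and 1044 ± 208 for vehicle (SD, n = 3 each; limma adjusted p = 0.379).

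Fgf2 (ENSMUSG00000037225, chr3:37348346-37410108, plus strand) encodes basic FGF, a mitogen of neural progenitors. Its exons overlap those of the antisense gene Nudt6, and the strand setting of the counting is not given, so its values are uncertain. Fgf2 had few reads, at 78.0, 55.0 and 68.2 normalized counts in NGPF2 replicates 1, 2 and 3, against 8.38, 139 and 130.0 in vehicle replicates 1, 2 and 3. Vehicle replicate 1 was the lowest of all 6 libraries, and vehicle replicates 2 and 3 were the highest. Vehicle replicate 1 held 13 recovered reads of Fgf2 and its NGPF2 partner 122. The log2 difference was 3.07, -1.33 and -0.92 in pairs 1, 2 and 3. In replicates 2 and 3 Fgf2 fell 2.18-fold (log2 difference -1.12, SE 0.21, limma adjusted p = 0.0248), and without NGPF2 replicate 2 this no longer passed (limma adjusted p = 0.0624). In pair 1 the ratio was 9.31, with a counting interval of 5.25 to 18.0. Nudt6 had 40.9, 89.7 and 111 normalized counts with NGPF2 and 64.5, 75.9 and 66.8 with vehicle. Fgf2 and Nudt6 summed to 119, 145 and 179 with NGPF2 and to 72.9, 215 and 197 with vehicle. The sum kept the direction of Fgf2 in each pair but differed by less than Fgf2 alone. In pair 3 the sums lay close, at 179 against 197, where Fgf2 alone had 68.2 against 130.0. The 3-pair difference of 0.28 (log2, SE 0.89) did not pass (limma adjusted p = 0.889), and it turned to -1.12 without replicate 1 and to -0.068 with voom on the recovered counts.

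Fgf9 (ENSMUSG00000021974, chr14:58070547-58112720, plus strand) encodes a secreted ligand of FGFR3 and FGFR2. It had 526, 851 and 859.7 normalized counts in NGPF2 replicates 1, 2 and 3, against 513, 469.8 and 577 in vehicle replicates 1, 2 and 3. NGPF2 replicates 2 and 3 lay above the other 4 libraries, and NGPF2 replicate 1 lay within the vehicle range. The log2 difference was 0.04, 0.86 and 0.57 in pairs 1, 2 and 3. Fgf9 rose 1.64-fold in replicates 2 and 3 (log2 difference 0.71, SE 0.13, limma adjusted p = 0.0215). That call was the least stable of the 6, since leaving out any of the 4 libraries ended it (limma adjusted p of 0.0611 to 0.158). The pair 1 ratio was 1.03, with a counting interval of 0.929 to 1.13. Over the 3 pairs the means were 746 ± 190.4 for NGPF2 and 519.9 ± 54.1 for vehicle (SD, n = 3 each; limma adjusted p = 0.379).

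**Figure D1:**
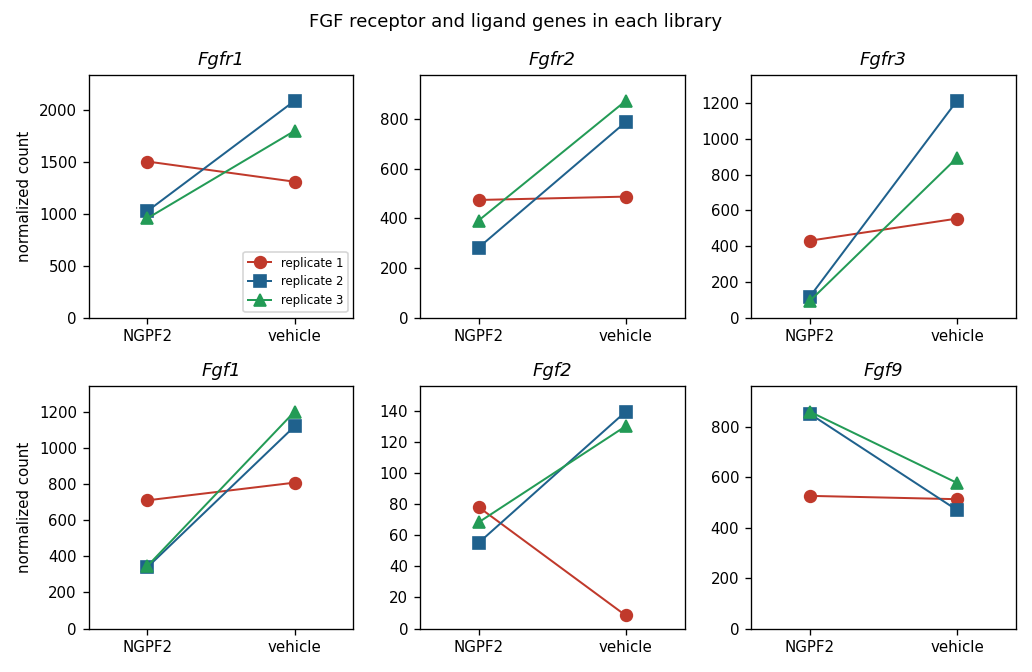
Normalized counts (linear axis from 0, with its own range for each gene) of the 3 receptors and 3 ligands in NGPF2 and vehicle cultures; each point is a library, the marker gives its replicate number, and a line joins the libraries of a pair. NGPF2 replicates 2 and 3 of Fgfr3, at 117 and 93.3, stand far below the other 4 libraries, and vehicle replicate 1 of Fgf2, at 8.38, stands below all others.

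Markers of other cell types moved in the same libraries. All 11 astrocyte markers fell in replicates 2 and 3, and their median log2 difference was 0.03, -2.80 and -2.20 in pairs 1, 2 and 3. Gfap, the intermediate filament of astrocytes, had 3029, 312 and 267 normalized counts with NGPF2 and 2914, 9219 and 9265 with vehicle. Of the 7 microglia markers tested 6 fell, as did 3 of 5 markers of oligodendrocyte precursors and all 6 markers of cycling cells, with medians of -2.87, -1.86 and -2.09 in replicates 2 and 3. Of the 12 neuron markers 7 rose and none fell. Of 6 oligodendrocyte markers 2 fell, of 7 fibroblast and mural markers 2 fell, and neither of the 2 endothelial markers tested passed. These counts stand beside 11.3% of all genes that passed as lower and 9.77% as higher in replicates 2 and 3. In the same fit the medians were -0.27 for oligodendrocyte, -1.95 for fibroblast and mural and -0.71 for endothelial markers. The 5 endothelial markers summed to 96.0, 38.3 and 30.5 normalized counts with NGPF2 and to 100, 65.2 and 45.3 with vehicle. The part of these cell types in the values of the 6 genes was not tested.

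The NGPF2 difference itself differed between the library sets for some of the 6 genes. The interaction fit subtracted the effect in replicate 1 from that in replicates 2 and 3, assuming that the lone libraries of replicate 1 vary like the others. Fgfr3 (-2.94 on the log2 scale, SE 0.35, limma adjusted p = 0.0291), Fgf1 (-1.57, SE 0.16, limma adjusted p = 0.0225) and Fgf2 (-4.20, SE 0.42, limma adjusted p = 0.0215) passed, all on the lower side, where 1.77% of all genes passed (2.49% in either direction, 0.721% on the higher side). Fgfr1 missed the threshold (-1.17, SE 0.18, limma adjusted p = 0.0507) and passed with the replicate block in the model (adjusted p = 0.0327). Fgfr2 (-1.28, SE 0.32, limma adjusted p = 0.115, or 0.0351 with voom on the recovered counts) and Fgf9 (0.68, SE 0.23, limma adjusted p = 0.195) did not pass. Without vehicle replicate 2 or 3 none of the 6 passed (adjusted p of at least 0.335 for Fgfr3, Fgf1 and Fgf2), and without NGPF2 replicate 3 Fgfr3 did not (adjusted p = 0.0530).

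**Figure D2:**
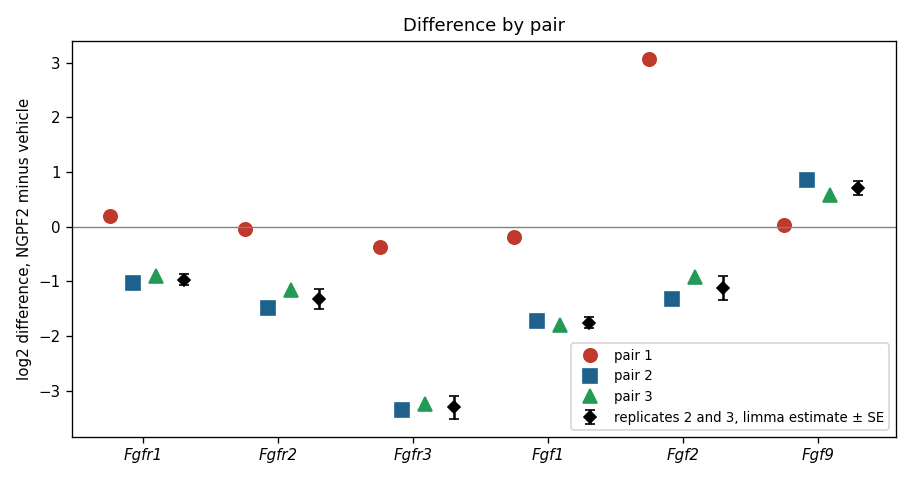
Log2 difference, NGPF2 minus vehicle, of each gene in pairs 1, 2 and 3, on the log2(normalized count + 1) scale, with the limma estimate for replicates 2 and 3 and its SE as a diamond with bars. Pairs 2 and 3 lie on the same side of 0 for every gene, at -3.36 and -3.25 for Fgfr3, and pair 1 lies between -0.36 and 0.20 for all but Fgf2, at 3.07.

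The library sets also differed without NGPF2. Vehicle replicate 1 held less Fgf1 than vehicle replicates 2 and 3 (log2 difference -0.52, limma adjusted p = 0.0375), less Fgfr1 (-0.57, limma adjusted p = 0.0388) and less Fgf2 (-3.85, limma adjusted p = 0.00330), against a background of 19.9% of all genes, 10.5% on the lower and 9.42% on the higher side. Fgfr3 (-0.91, limma adjusted p = 0.0634), Fgfr2 (-0.77, limma adjusted p = 0.0759) and Fgf9 (-0.02, limma adjusted p = 0.939) did not pass with limma on the log2 values, although with voom on the recovered counts Fgfr3 and Fgfr2 did (adjusted p of 0.0140 and 0.0165). This fit sets 1 library against 2, and without vehicle replicate 2 or 3 none of the 6 passed (adjusted p of at least 0.107). Markers of several cell types differed in the same comparison. Of the tested markers, 8 of 11 astrocyte, 7 of 12 neuron, 5 of 6 cycling cell, 2 of 5 oligodendrocyte precursor and 2 of 6 oligodendrocyte markers were lower in vehicle replicate 1, while 4 of 7 fibroblast and mural, 2 of 7 microglia and 3 of 12 neuron markers were higher. The astrocyte sum was 30924 in vehicle replicate 1, against 75272 and 68003 in vehicle replicates 2 and 3. The fibroblast and mural sum was 3120.4, against 516 and 475, and the microglia sum was 1388, against 547 and 463. Their part in these differences was not tested.

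Levels can be compared between genes only per length, so recovered counts were also expressed per kilobase of exon and scaled to the library's total count (FPKM). Fgfr1 stood at 5.26, 3.21 and 3.09 FPKM in NGPF2 replicates 1, 2 and 3 and at 4.59, 7.19 and 6.28 FPKM in vehicle replicates 1, 2 and 3. Fgf1 stood at 4.50, 1.92 and 2.02 FPKM with NGPF2 and at 5.13, 6.98 and 7.59 FPKM with vehicle, and it and Fgfr1 were the top pair in every vehicle library. Fgf9 had 3.91, 5.65 and 5.89 FPKM with NGPF2 and 3.82, 3.44 and 4.28 FPKM with vehicle. It ranked first of the 6 in NGPF2 replicates 2 and 3, and behind Fgf1 and Fgfr1 in the other 4 libraries, with Fgfr3 also above it in vehicle replicates 2 and 3. Fgfr3 stood at 2.08, 0.505 and 0.416 FPKM with NGPF2 and at 2.68, 5.76 and 4.30 FPKM with vehicle. Fgfr2 had 1.59, 0.843 and 1.21 FPKM with NGPF2 and 1.63, 2.59 and 2.92 FPKM with vehicle. Fgf2 was last in every library, at 0.250 to 0.398 FPKM with NGPF2 and 0.0428 to 0.699 FPKM with vehicle. Ordered by mean over the NGPF2 libraries, the levels were 5.15 ± 1.08 FPKM for Fgf9, 3.85 ± 1.22 for Fgfr1, 2.81 ± 1.46 for Fgf1, 1.21 ± 0.372 for Fgfr2, 1.00 ± 0.936 for Fgfr3 and 0.323 ± 0.0739 for Fgf2 (SD, n = 3 each). Over the vehicle libraries they were 6.56 ± 1.28 FPKM for Fgf1, 6.02 ± 1.32 for Fgfr1, 4.25 ± 1.54 for Fgfr3, 3.85 ± 0.423 for Fgf9, 2.38 ± 0.667 for Fgfr2 and 0.468 ± 0.368 for Fgf2 (SD, n = 3 each). Neighbours in these orders overlapped within 1 SD, except Fgf9 and Fgfr2, and Fgfr2 and Fgf2, over the vehicle libraries. With the longest transcript as the length, Fgf9 still ranked first in NGPF2 replicates 2 and 3, while Fgfr1 led in all 3 vehicle libraries. On that length the order of Fgf9 and Fgfr2 over the vehicle libraries turned, and the 2 overlapped. They stood at 4.98 ± 0.547 FPKM for Fgf9 and 5.55 ± 1.55 for Fgfr2 (SD, n = 3 each). Fgfr3 also ranked above Fgf1 in vehicle replicate 2, at 9.71 against 9.57 FPKM.

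The makeup of the receptor transcripts differed in the same libraries. As a share of Fgfr1 to Fgfr4 per length, Fgfr3 made up 23.3%, 11.1% and 8.82% in NGPF2 replicates 1, 2 and 3, against 30.0%, 37.1% and 31.9% in vehicle replicates 1, 2 and 3. Fgfr1 made up 58.9%, 70.4% and 65.5% with NGPF2 and 51.4%, 46.2% and 46.5% with vehicle. The share of Fgfr2 overlapped between the groups, at 17.8%, 18.5% and 25.6% with NGPF2 and 18.3%, 16.7% and 21.6% with vehicle. The 3 receptors summed to 8.93, 4.55 and 4.71 FPKM with NGPF2 and to 8.90, 15.5 and 13.5 FPKM with vehicle. The 3 ligands summed to 8.81, 7.82 and 8.24 FPKM with NGPF2 and to 8.99, 11.1 and 12.5 FPKM with vehicle. Fgf9 supplied 44.4%, 72.3% and 71.6% of that ligand sum with NGPF2 and 42.5%, 30.9% and 34.2% with vehicle. Pair 1 was thus nearly even in both sums, while in pairs 2 and 3 the receptor sum was lower with NGPF2 and Fgf9 made up most of the ligand sum.

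**Figure D3:**
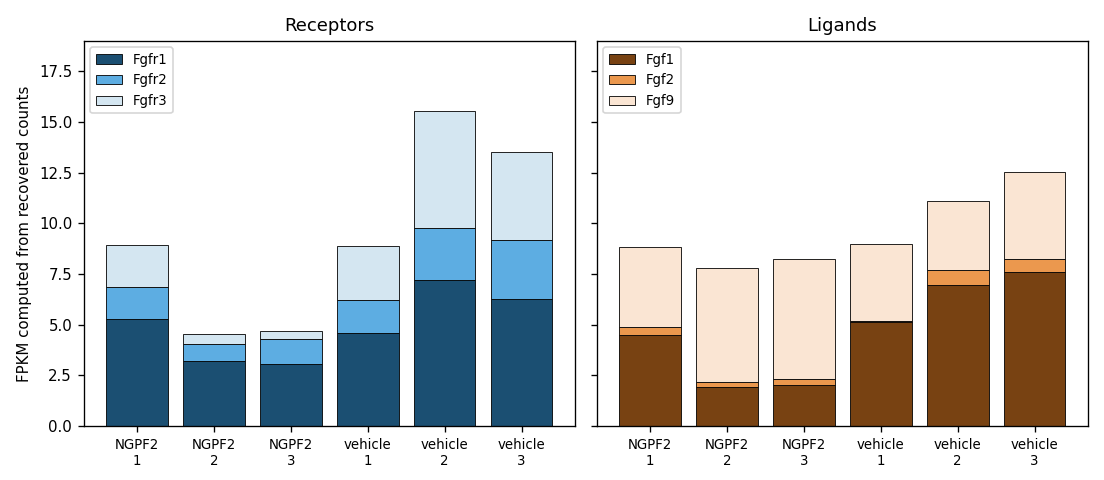
FPKM computed from recovered counts, stacked over the 3 receptors (left panel) and the 3 ligands (right panel), with a bar for each library by group and replicate number. The receptor bars of NGPF2 replicates 2 and 3 reach 4.55 and 4.71 FPKM, against 15.5 and 13.5 FPKM in vehicle replicates 2 and 3, and Fgf9 fills most of the ligand bars of NGPF2 replicates 2 and 3.

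Of 4 other receptors and co-receptors 2 were abundant enough to be tested, and 1 fell in replicates 2 and 3. Of all genes, 11.3% passed as lower and 9.77% as higher in that fit. Fgfrl1, a receptor that lacks the tyrosine kinase domain, had 297, 72.9 and 71.8 normalized counts in NGPF2 replicates 1, 2 and 3, against 339.8, 421 and 423 in vehicle replicates 1, 2 and 3. It fell 5.77-fold in replicates 2 and 3 (log2 difference -2.53, SE 0.15, limma adjusted p = 0.00167), and its difference also differed between the library sets (limma adjusted p = 0.0215). Fgfr4 had no read in any NGPF2 library, which allows up to 3 reads in each, and 3 reads in vehicle replicate 1 alone. Of the Klotho co-receptors of endocrine FGFs, Klb was too low to be tested, at 3.59 to 9.60 normalized counts with NGPF2 and 3.58 to 10.3 with vehicle. Kl did not pass, at 12.8, 21.5 and 34.1 with NGPF2 and 19.3, 29.5 and 35.8 with vehicle.

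Of 15 other secreted FGF ligands 13 had a value and 6 were abundant enough to be tested. Of these 1 rose in replicates 2 and 3. It was Fgf18, a secreted ligand of the same subgroup as Fgf8 and Fgf17, at 85.1, 90.9 and 80.8 normalized counts with NGPF2 and 73.5, 46.4 and 37.0 with vehicle (log2 difference 1.03, SE 0.25, limma adjusted p = 0.0448). The median of the 6 was -0.32, 0.90 and 0.71 in pairs 1, 2 and 3. Of the 4 intracellular FGFs, which do not signal through these receptors and bind sodium channels, Fgf13 rose (7130.4, 7741 and 7278 with NGPF2, and 6819, 4604 and 4059 with vehicle; log2 difference 0.80, SE 0.09, limma adjusted p = 0.00632) and the other 3 did not pass. Of 7 membrane proteins that bind FGF receptors, 6 did not pass. Nptn, neuroplastin, rose in replicates 2 and 3 (log2 difference 0.35, SE 0.08, limma adjusted p = 0.0415). By pair, the log2 difference of Nptn was -0.43, 0.32 and 0.38 in pairs 1, 2 and 3, so it was lower with NGPF2 in pair 1. Each of these lists thus held 1 gene that rose in replicates 2 and 3, beside 9.77% of all genes passing as higher and 11.3% as lower.

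Of the 14 tested genes for FGF-binding proteins and heparan sulfate enzymes, 2 rose and 3 fell in replicates 2 and 3, beside the same shares of all genes (9.77% higher and 11.3% lower). Glce, the epimerase of heparan sulfate, had 1138, 1792 and 1691 normalized counts with NGPF2 and 1116, 1116 and 1059 with vehicle (log2 difference 0.68, limma adjusted p = 0.00786). Hs6st3, a 6-O-sulfotransferase, rose as well (0.55, limma adjusted p = 0.0137), whereas Hs6st2, of the same family, fell (-0.67, limma adjusted p = 0.0150). Ndst3, an N-sulfotransferase, had 578, 276 and 305 normalized counts with NGPF2 and 564, 631 and 652 with vehicle (-1.14, limma adjusted p = 0.00521). Sulf2, a secreted sulfatase that removes 6-O-sulfates, also fell (-0.73, limma adjusted p = 0.00538). Their median over all 14 was -0.16 in replicates 2 and 3.

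Among the 22 genes of adaptors and of the Ras-MAPK cascade, 5 rose and 4 fell in replicates 2 and 3, where 9.77% of all genes passed as higher and 11.3% as lower, and the median log2 difference of the list was -0.05. Gab1, an adaptor bound by GRB2, had 420.3, 72.9 and 66.4 normalized counts in NGPF2 replicates 1, 2 and 3, against 422, 381 and 308 in vehicle replicates 1, 2 and 3. It fell 4.87-fold in replicates 2 and 3 (log2 difference -2.28, SE 0.19, limma adjusted p = 0.00316), and its paralog Gab2 (-0.81, limma adjusted p = 0.0105) and the Ras exchange factor Sos2 (-0.42, limma adjusted p = 0.0438) fell less. Mapk3, which encodes the kinase ERK1, rose 1.65-fold (6155, 4783 and 4446 with NGPF2 and 6038, 2902 and 2676 with vehicle; log2 difference 0.73, limma adjusted p = 0.00632). Hras (0.55, limma adjusted p = 0.00762) and Plcg1, phospholipase C gamma 1 (0.37, limma adjusted p = 0.0220), rose too. Frs2, the main docking protein of the receptors, had 1347, 1374 and 1430.4 normalized counts with NGPF2 and 1367, 1449.6 and 1378 with vehicle, and did not pass.

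Of the 11 tested feedback and target genes of FGF signalling 5 fell in replicates 2 and 3 and none rose, where 11.3% of all genes passed as lower and 9.77% as higher. The median was -0.00, -0.40 and -0.54 in pairs 1, 2 and 3. Etv4, an ETS transcription factor, had 230.3, 83.7 and 70.0 normalized counts in NGPF2 replicates 1, 2 and 3, against 191, 262 and 260.0 in vehicle replicates 1, 2 and 3, a 3.38-fold fall in replicates 2 and 3 (log2 difference -1.76, SE 0.18, limma adjusted p = 0.00535). Spry4, a Sprouty inhibitor of Ras-MAPK signalling, had 1202, 648 and 641 with NGPF2 and 1116, 1338 and 1468 with vehicle (-1.12, limma adjusted p = 0.00315). Etv5 had 2834, 3779 and 3668 with NGPF2 and 2861, 6145 and 6277 with vehicle (-0.74, limma adjusted p = 0.00348). Spry2 (-0.52, limma adjusted p = 0.0126) and Dusp6, a phosphatase of ERK (-0.47, limma adjusted p = 0.0165), were the others. For Etv4, Spry4 and Etv5 the difference also differed between the library sets (limma adjusted p of 0.0433, 0.0323 and 0.0480). Over the 3 pairs no gene of any of these lists passed. The astrocyte markers, 11 of 11, and the cycling cell markers, 6 of 6, fell in the same libraries of replicates 2 and 3, and their part in these pathway counts was not tested.

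**Figure D4:**
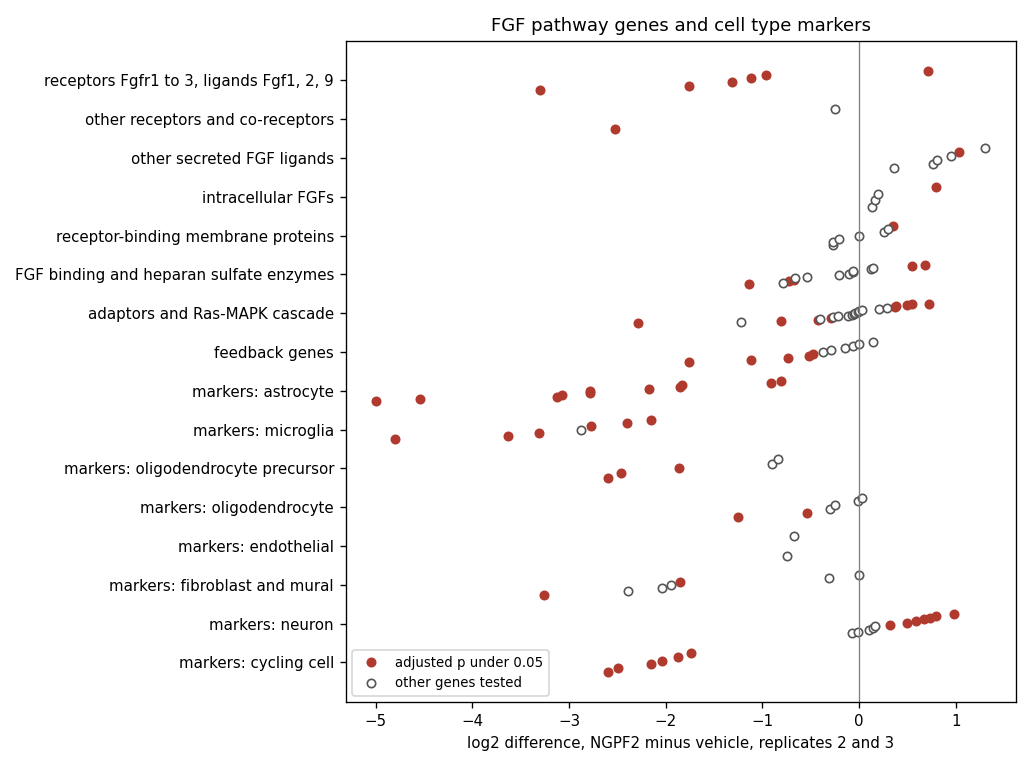
Log2 difference, NGPF2 minus vehicle, in replicates 2 and 3 for every tested gene of the 6 receptors and ligands, the pathway lists and the marker lists; each point is a gene, filled where the limma adjusted p was under 0.05. All 11 astrocyte markers and 5 of 11 feedback genes are filled on the lower side, and 7 of 12 neuron markers are filled on the higher side. Among all genes 11.3% passed as lower and 9.77% as higher.

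The 6 genes did not all share 1 pattern over the libraries. Fgfr1, Fgfr2, Fgfr3 and Fgf1 were lower with NGPF2 in pairs 2 and 3 and differed less in pair 1. Fgf2 was lower there too but higher with NGPF2 in pair 1, and Fgf9 was higher in pairs 2 and 3. Distances are the root mean square difference, over the 6 libraries, of the log2 values of 2 genes, each centred on its own mean. The values are not scaled, so genes that change in the same libraries by different amounts also lie apart. Fgfr1 and Fgfr2 were nearest to each other (0.261), and Fgfr3 and Fgf2 were farthest apart (1.74). Among protein-coding genes with a mean of at least 100 normalized counts, the 3 nearest to Fgfr3 were Gja1 (0.153), the astrocyte gap junction protein connexin 43, Dbx2 (0.166), a homeobox factor, and Cbs (0.168), cystathionine beta-synthase. Gja1 had 1031, 259 and 221 normalized counts in NGPF2 replicates 1, 2 and 3, against 1069, 2151 and 1909.5 in vehicle replicates 1, 2 and 3. Gja1 is also on the astrocyte marker list. The 3 nearest to Fgfr1 were Igfbp2 (0.0529), an insulin-like growth factor binding protein, Raver2 (0.0531) and the forkhead factor Foxo4 (0.0603). Those nearest to Fgfr2 were the small GTPases Rhoq (0.104) and Rab27b (0.104) and the lipid transfer protein Stard5 (0.106).

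For Fgf1 the nearest were Asrgl1 (0.0706), an asparaginase, Clic4 (0.0782), an intracellular chloride channel protein, and the transcription factor Nfatc1 (0.0871). For Fgf9 they were Spink10 (0.0730), Cox5a (0.0801), a subunit of cytochrome c oxidase, and Rara (0.0806), a retinoic acid receptor. Fgf2 had no near neighbour, since the nearest were Epm2aip1 (0.572), Wars2 (0.591), the mitochondrial tryptophanyl-tRNA synthetase, and Slc1a2 (0.599), the main astrocyte glutamate transporter. Epm2aip1 had 8054, 7728 and 7172 normalized counts in NGPF2 replicates 1, 2 and 3, against 1301, 7333 and 7189 in vehicle replicates 1, 2 and 3, and so shared with Fgf2 the low value in vehicle replicate 1. These distances describe 6 libraries, which the genes share.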

How the data were processed

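Libraries were made from mRNA caught on oligo(dT) beads and broken into short pieces, per the labels' protocols. STAR 2.5, DESeq 1.22.1, Cuffnorm, FastQC and the build mm10 are named in the submitters' processing notes. Which annotation, counting tool and strand setting were used is not given in the sources used here.

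The deposited table's name says FPKM, but the authors' values are log2(normalized count + 1). With the log undone, 100% of values were whole multiples of 1 step per library (tolerance 0.01 of a count), so counts were recovered. The step equals the inverse of the median-of-ratios size factor. FPKM given here was computed from those counts and the exon union of GENCODE M21, which held 31185 of the 31245 identifiers. Intervals and floors here hold for counting error alone.

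The columns of replicate 1 carry no library name from the titles and were assigned by elimination within their group. Their names carry the digit 3, which is not the replicate number assigned, so every statement on replicate 1 or pair 1 rests on this assignment. Their group follows from the initial in the column name.

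limma 3.58.1 in R 4.3.3 (mean-variance trend, 2-sided) was run on the deposited log2 values of 16653 genes. The replicate block follows the design text. Deviations from the group means correlated at 0.594, 0.299 and 0.333 between libraries numbered 1, 2 and 3. Replicates 2 and 3 crossed gave 0.320 and 0.342, which is as high. The difference of replicate 2 minus replicate 3 correlated at -0.0146 between the groups, across genes. The values thus do not show that pairs 2 and 3 are matched, and this pairing rests on the replicate numbers. Alternatives were the pseudocount, the filter, the scaling, the block, the gene length, leaving out libraries and, added after the data were seen, limma's voom on the recovered counts.

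The genes, lists and tests were chosen with earlier results of these data known. Named were the 6 genes, up to 3 genes per direction and list of smallest p in replicates 2 and 3 among those that passed, and the 3 nearest profiles per gene. Fgfr4, Frs2, Spry2, Dusp6, Gfap, Klb, Kl were named outside that rule, after their values were seen. Plots were made in Python 3.11.15 with matplotlib 3.10.9.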

Additional observations from a re-analysis of the deposited data

Results flagged for a closer look

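For 3 of the 6 genes the NGPF2 difference in replicates 2 and 3 departed from that in replicate 1 by the interaction test (limma, Benjamini-Hochberg over 16653 genes). The departure on the log2 scale was -2.94 for Fgfr3, -1.57 for Fgf1 and -4.20 for Fgf2. Over all genes 2.49% passed this test, 1.77% on the lower side. Replicate 1 is 1 library per group. Without vehicle replicate 2 or 3 none of the 3 passed (adjusted p of 0.335 to 0.345), nor did any with a minimum mean of 1 normalized count (0.125 to 0.136), and Fgfr3 did not without NGPF2 replicate 3 (0.0530). The Fgf2 value includes the 13 reads of vehicle replicate 1.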

How the results depend on the processing

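Over the 3 pairs 0 genes passed with limma and 0 with voom on the recovered counts, while 2166 of 16653 had an unadjusted limma p under 0.05. With a pseudocount of 5 and with no replicate block the count was 1 each. Leaving out a replicate gave 0 to 3275 genes. The count of 3275 came without replicate 1, when all 6 genes described here passed. In replicates 2 and 3, where 3511 genes passed, a minimum mean of 1 normalized count gave 2216 and ended the calls of Fgfr2, Fgf2 and Fgf9 (adjusted p of 0.0554, 0.0589 and 0.0677). Leaving out a library gave 0 to 3206 genes, and the replicate block gave 3275 and ended no call of the 6. For the difference between the library sets, where 415 genes passed, a minimum of 1 gave 1 gene, a minimum of 50 gave 733, voom gave 1473, leaving out a library gave 0 to 412 and the replicate block gave 526. With the minimum of 1, Fgfr3, Fgf1 and Fgf2 no longer passed there (adjusted p of 0.136, 0.125 and 0.126), and Fgfr1 passed in 6 of 8 settings that keep all libraries. Between the vehicle sets, where 3322 passed, a minimum of 1 gave 1982 and ended the calls of Fgfr1 and Fgf1 (adjusted p of 0.100 and 0.0555), a minimum of 50 added Fgfr3 (0.0452), voom gave 5041 and leaving out a library gave 0 to 1. Directions turned for 2 genes. Fgf2 over the 3 pairs was -0.068 with voom and ranged from -1.12 to 1.08 when a replicate was left out, and Fgf9 between the vehicle sets was 0.011 with TMM factors and ranged from -0.17 to 0.13 when a library was left out. With library totals, which shift the median of all genes in replicates 2 and 3, each of the 6 genes kept its direction relative to that shift. With the longest transcript as the length, Fgfr3 made up 8.34% of the receptor sum in NGPF2 replicates 2 and 3 (9.96% with the exon union) and 30.0% in vehicle replicates 2 and 3 (34.5%). With the deposited size factors Fgfr1 stood at 3.35 FPKM in NGPF2 replicates 2 and 3 (3.15 with library totals). The planned test with edgeR on recovered counts was not run, and voom took its place. The cause of these shifts was not tested. Fgf2 had 38 to 122 reads in NGPF2 libraries and 13 to 156 in vehicle libraries, and its counting intervals are wide for that reason.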

Other observations

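Some genes of the pathway lists stood apart in 1 or 2 libraries, and they are named after their values were seen. Grb2, which couples the receptor complex to SOS, had 2760.2, 7881 and 7249 normalized counts in NGPF2 replicates 1, 2 and 3, against 6069, 6369 and 6790.1 in vehicle replicates 1, 2 and 3. Nras, a Ras GTPase, had 1799, 1489.6 and 434 normalized counts with NGPF2 and 1826, 2005 and 568 with vehicle, so that replicate 3 was low in both groups. The cause was not tested.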
